A study of Mus musculus with 12 samples.

Results

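The subject is 46 mouse genes of mitosis and of the G2/M transition, the step at which a cell that has copied its DNA enters division. They were taken by name from a list that runs from the kinase of mitotic entry to the genes of cytokinesis, and a probe was found for all 46 among 19751 named genes on the arrays. All 46 passed the filter on dim probes that left 15370 genes, and 45 of them were well above background on all 12 arrays. The exception was Aurkb, well above background on 11 arrays.

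The samples came from the medial part of the telencephalon of mouse embryos of strain CD-1, electroporated at E11.5, and were cells sorted for GFP 24 hours later, at E12.5. All 4 groups received a vector for a nuclear EGFP. They also received control siRNAs, the first or the second of 2 siRNA sets that target Dmrt3 together with Dmrta2 (set 1, set 2), or a plasmid that expresses Dmrta2 (labelled Dmrta2 overexpression). Each group had 3 replicates, which the design text calls independent. Control siRNAs served as the only control, for the plasmid too, and no group received an empty plasmid. Dmrt3 and Dmrta2 encode related transcription factors of the dorsal and medial telencephalon. Each replicate was 1 one-colour array, the replicate number was the slide, and each slide held 1 array of every group at the same position, so position and group cannot be told apart. Which embryos or litters a sample came from was not given in the labels used here, so p-values measure the spread between these samples. Values are log2 signals relative to the array's own 75th percentile, so 0 is that percentile, and differences are log2 differences with their standard errors (SE). They were measured with each gene's brightest probe, and levels are compared within a probe only.

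Entry into mitosis is driven by the kinase Cdk1 with a cyclin B, held back by the inhibitory kinases Wee1 and Pkmyt1 and released by Cdc25 phosphatases. Aurora and Polo-like kinases then build the spindle, the spindle assembly checkpoint holds anaphase until kinetochores are attached, and the anaphase-promoting complex with Cdc20 ends mitosis by marking cyclin B and securin for destruction. Transcripts of these genes peak together late in the cycle, under Foxm1, Mybl2 and the MuvB complex, through CHR elements and CCAAT boxes in their promoters. In the embryonic telencephalon progenitors, among them those along the ventricle, divide, and their neuronal daughters leave the cycle.

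The upstream sequences of 6 members, picked by name, are shown. All but that of Mad2l1, the gene with the largest siRNA difference, hold promoter letters that are common in the list. The sequences are the 250 bases before the annotated start, 5′ to 3′ on the gene's own strand, from RefSeq on build GRCm38.p6. Capitals mark the CHR element (TTTGAA or TTCGAA) and the CCAAT box (CCAAT), each read on both strands.
Cdk1: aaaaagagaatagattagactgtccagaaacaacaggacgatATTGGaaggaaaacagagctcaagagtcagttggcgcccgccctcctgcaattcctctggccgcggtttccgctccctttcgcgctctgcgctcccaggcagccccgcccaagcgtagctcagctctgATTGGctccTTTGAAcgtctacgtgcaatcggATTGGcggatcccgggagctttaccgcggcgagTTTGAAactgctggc
Ccnb1: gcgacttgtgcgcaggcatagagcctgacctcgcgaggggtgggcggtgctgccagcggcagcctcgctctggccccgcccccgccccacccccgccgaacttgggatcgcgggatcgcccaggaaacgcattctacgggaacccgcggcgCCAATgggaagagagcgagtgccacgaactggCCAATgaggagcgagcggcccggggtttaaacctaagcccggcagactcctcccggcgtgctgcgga
Ccnb2: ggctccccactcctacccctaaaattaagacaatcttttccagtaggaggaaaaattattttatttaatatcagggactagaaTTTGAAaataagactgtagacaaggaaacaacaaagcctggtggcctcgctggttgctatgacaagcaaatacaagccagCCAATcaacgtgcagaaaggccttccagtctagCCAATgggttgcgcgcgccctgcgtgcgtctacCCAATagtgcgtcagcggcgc
Cdc20: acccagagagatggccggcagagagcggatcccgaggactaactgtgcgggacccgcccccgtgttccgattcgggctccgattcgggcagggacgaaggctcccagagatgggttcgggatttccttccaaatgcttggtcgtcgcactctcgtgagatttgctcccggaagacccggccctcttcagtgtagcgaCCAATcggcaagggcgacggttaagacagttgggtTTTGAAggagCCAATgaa
Top2a: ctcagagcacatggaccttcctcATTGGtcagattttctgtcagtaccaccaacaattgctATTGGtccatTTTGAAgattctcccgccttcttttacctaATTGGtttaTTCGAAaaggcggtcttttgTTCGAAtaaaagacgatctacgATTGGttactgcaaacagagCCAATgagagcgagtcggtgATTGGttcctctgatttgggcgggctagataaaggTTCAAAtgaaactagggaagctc
Mad2l1: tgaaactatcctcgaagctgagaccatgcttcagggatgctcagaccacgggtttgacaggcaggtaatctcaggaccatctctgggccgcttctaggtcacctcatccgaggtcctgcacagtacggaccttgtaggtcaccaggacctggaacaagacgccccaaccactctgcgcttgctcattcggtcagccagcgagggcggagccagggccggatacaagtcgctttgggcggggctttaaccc
The windows lie at chr10:69352913-69353162 (minus strand) for the mitotic kinase gene Cdk1, chr13:100786487-100786736 (minus) and chr9:70421555-70421804 (minus) for the cyclin B genes, and chr4:118437344-118437593 (minus) for the anaphase activator Cdc20. Those of the topoisomerase gene Top2a and the checkpoint gene Mad2l1 lie at chr11:99024190-99024439 (minus) and chr6:66534971-66535220 (plus). In Cdk1, CHR elements began 71 and 15 bases before the start and CCAAT boxes 208, 80 and 48 bases before it. Ccnb1 held 2 CCAAT boxes and no CHR element in these letters, Ccnb2 3 CCAAT boxes and 1 CHR element, and Cdc20 2 CCAAT boxes and a CHR element that began 18 bases before the start. Top2a held 6 CCAAT boxes and 4 CHR elements. Mad2l1 held none of these letters.

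Windows were read for 39 of the 46 members, 42 windows in all, since Bub3, Ect2 and Prc1 have 2 each. No window was used here for Cdc25c, Aurkb, Ccna2, Kif20a, Tpx2, Incenp and Smc4. At least 1 CCAAT box lay in 33 of the 42 windows (78.6%), against 33.8% of all 32851 windows searched, and at least 2 lay in 22 (52.4%), against 10.1%. A CHR element lay in 17 windows (40.5%), against 17.1%, and both lay in 16 (38.1%), against 6.02%. The E2F element, spelled TTCCCGC or TTGGCGC, lay in 5 windows (11.9%), against 5.62%. Its second spelling can overlap a CCAAT box read on the other strand, as it does in Ccnb1. A match of letters is a description and not a site of binding. Split by these motifs and without a test, the median difference of both sets from control was -0.12 over the 14 genes with both motifs, -0.06 over the 16 with a CCAAT box alone and -0.13 over the 8 with neither.

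Signal was well above background at 67.1% to 72.2% of the spots of an array, and the raw 75th percentiles lay between 572 and 1143. The level of Dmrt3 differed from control by -0.90 ± 0.26 over both siRNA sets (n = 6 against 3) and that of Dmrta2 by -0.46 ± 0.14, with limma's adjusted p at 0.162 and 0.207. On the arrays labelled overexpression the Dmrta2 probe lay at -0.49 ± 0.16 from control, below and not above it. Where that probe lies relative to the plasmid's insert was not given in the sources used here, so it may check nothing about the plasmid. All 15 telencephalic progenitor markers listed were well above background on every array. None passed the threshold against control. Past it, 3 of them, Pax6 (-1.52), Slc1a3 (-0.81) and Vim (-0.58), were lower in labelled overexpression than in the siRNA average, where 2.15% of all genes passed in either direction. Of the 15 markers 9 lay above 0 in that comparison and 6 below, with a median of 0.06 and a highest difference of 0.75. Microglia and macrophage markers (11 of 12 kept, without Cd68) had a higher median on each of the 9 treated arrays than on the 3 control arrays, and their summed level ran from 13.8 to 24.7 times the 75th percentile in controls, from 11.4 to 26.1 in set 1, from 13.1 to 25.2 in set 2 and from 13.1 to 24.4 in the labelled overexpression group. Of these 11 markers, 5 were higher than control past the threshold for the siRNA average, 6 for set 2, 4 for labelled overexpression and 0 for set 1. In either direction 0.703%, 0.943%, 0.280% and 0.215% of all genes passed there. The set 1 array of slide 1 stood apart in mesenchyme markers, at a median of 3.24 above their own means against -0.82 to 0.40 on the other arrays, and all 6 of the 10 that were kept lay above control in set 1 (median 1.31, none past the threshold). All 9 erythroid markers kept of 13 lay above control in each group, at medians of 0.68 for the siRNA average, 0.59 for set 1, 0.86 for set 2 and 1.17 for labelled overexpression, none past the threshold. Their summed level ran from 8.22 to 10.2 in controls, 5.42 to 39.4 in set 1, 8.74 to 25.3 in set 2 and 14.0 to 34.2 in labelled overexpression, and Alas2 was not well above background on any control array. The part of these cells in the values below was not tested.

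No member passed limma's threshold (Benjamini-Hochberg adjusted p under 0.05 over all 15370 genes) in any of 6 comparisons. Against control, 0 of 46 members passed for both siRNA sets averaged, where 0.703% of all genes did, and 0 for set 1 (0.215% of all genes), set 2 (0.943%) and the arrays labelled overexpression (0.280%). None passed for set 2 against set 1 (0.0781%) or for labelled overexpression against the siRNA average (2.15%). In each comparison that background share comes to less than 1 gene in 46, so a count of 0 is near the background. At an unadjusted p under 0.05 the siRNA average held 1 member above control (7.37% of all genes) and 4 below (4.61%), and in either direction set 1 held 1 (9.96%), set 2 held 7 (12.8%) and labelled overexpression 0 (4.48%). Set 2 against set 1 held 2 (9.75%) and labelled overexpression against the siRNA average 3 (13.3%). The lowest adjusted p among members was 0.179 for the siRNA average, 0.252 for set 1, 0.203 for set 2 and 1 for labelled overexpression. Fewer cells in division and less of these RNAs per dividing cell cannot be told apart in such bulk samples.

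The differences were small and their errors bounded them. Against control, the 95% interval of 45 of 46 members lay within a 2-fold difference either way for the siRNA average, of 44 for set 1, 41 for set 2 and 44 for labelled overexpression. The same held for 85.1%, 80.0%, 78.5% and 82.3% of all genes. The exceptions were Aurkb throughout, Espl1 in all but the siRNA average, and Ccna2, Cdc25c and Cenpf in set 2. In the fit blocked by slide, where the differences are the same and their errors leave out the slide, the intervals of all 46 members lay within 2-fold in these 4 comparisons, as did 89.0%, 85.2%, 84.6% and 87.0% of all genes. For Aurkb that bound rests in part on slide 2, where its raw intensity was only 4.56 to 9.31.

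Most members lay a little below control in every group. For both siRNA sets averaged the median difference was -0.10 and 33 of 46 members lay below 0, against a median of -0.0031 and 50.6% of all genes. Set 1 had a median of -0.10 with 31 members below 0 (51.6% of all genes), and set 2 a median of -0.12 with 33 (49.3%). Labelled overexpression had a median of -0.04 with 32 below 0 (47.6%). All of these comparisons used the same 3 control arrays, so their common direction is not independent. Among them, labelled overexpression differed from the siRNA average by a median of 0.06, with 14 members below 0 (47.8% of all genes), and set 2 from set 1 by a median of -0.02, with 29 below 0 (45.6%).

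**Figure D1:**
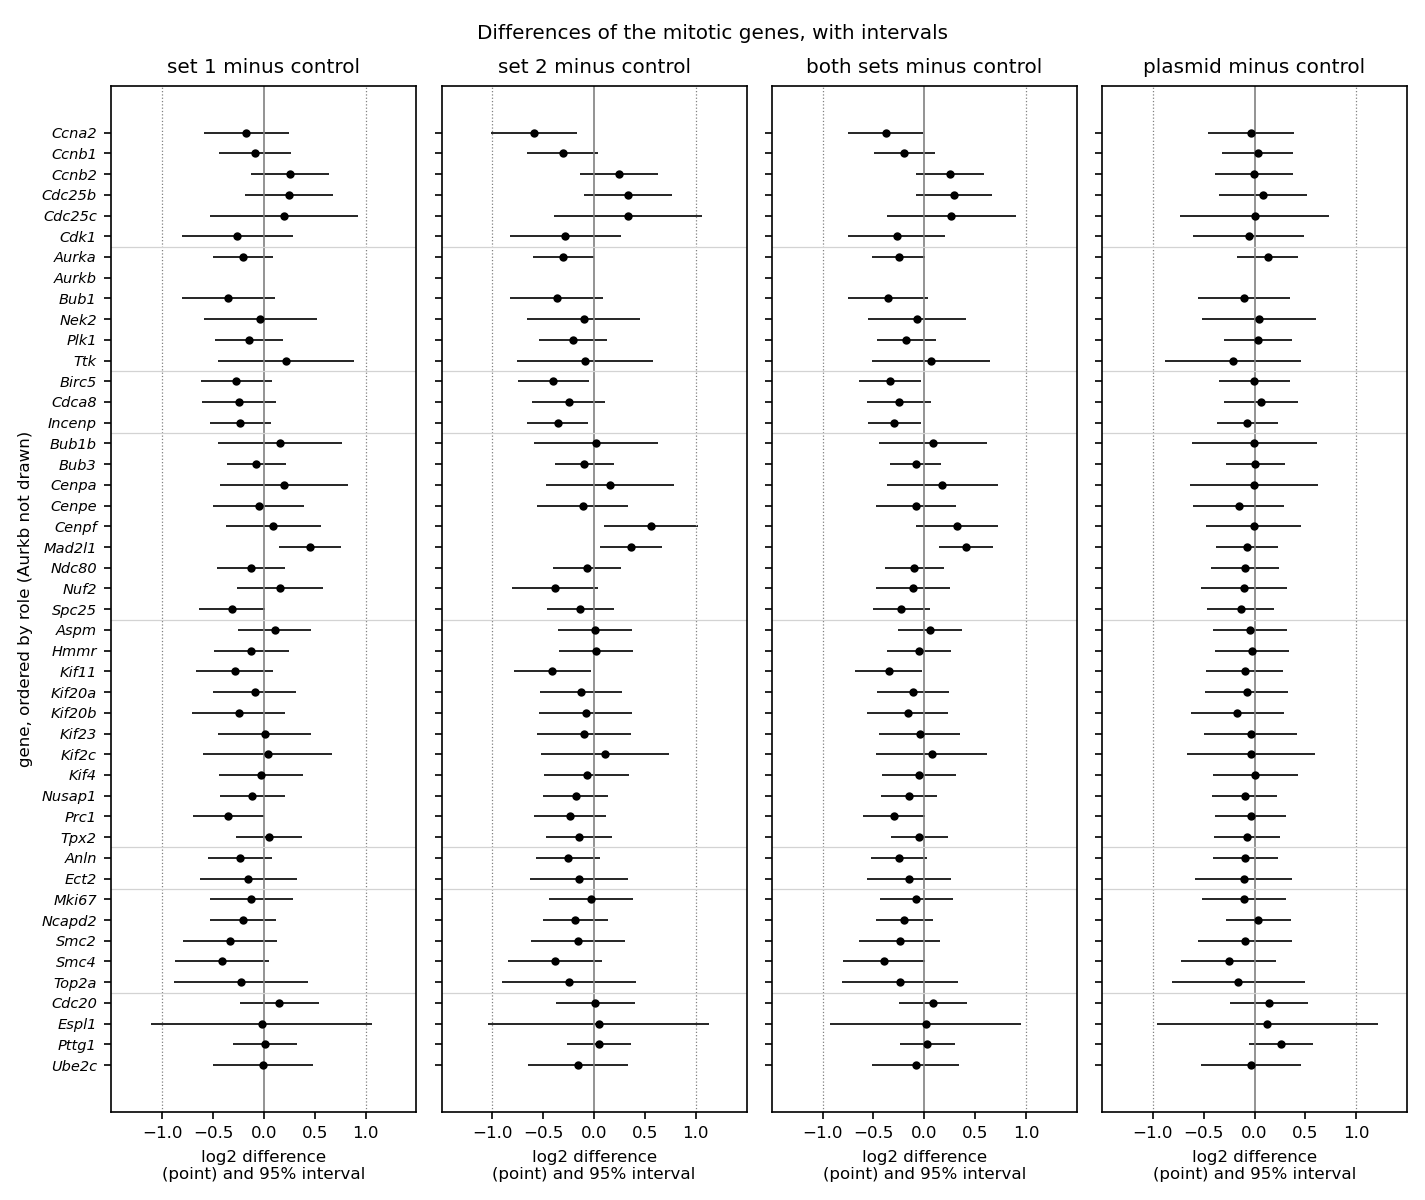
Log2 differences from control siRNAs (x axis; points, with 95% intervals from limma as lines) for 45 mitotic genes ordered by role, for set 1, set 2, both sets averaged (n = 6 against 3) and the arrays labelled overexpression (plasmid). Dotted lines mark a 2-fold difference; Aurkb, whose interval is wider than the axis, is not drawn, and Mad2l1 has the highest point for both sets averaged (0.41).

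Among the 6 genes of mitotic entry, the siRNA average placed 3 above control and 3 below. Ccna2, the cyclin A of S and G2 phase, stood on slides 1, 2 and 3 at 2.94, 2.74 and 2.85 with control siRNAs, 3.03, 2.66 and 2.32 with set 1, 2.11, 2.56 and 2.09 with set 2 and 2.89, 2.90 and 2.65 on the arrays labelled overexpression. All 3 set 2 arrays lay below all 3 controls, while the other groups overlapped the controls. The difference of set 2 was -0.59 ± 0.19 (n = 3 against 3, limma's adjusted p = 0.203, or 0.110 in a fit blocked by slide), the lowest of all members, and that of set 1 was -0.17 ± 0.19. Non-overlap below control was found for 5 members in set 2 (Ccna2, Kif11, Smc4, Nuf2 and Incenp), where 7.71% of all genes showed it, and above control for Mad2l1 alone, where 10.3% did. The other probe of Nuf2 had the opposite sign for set 2 against control, at 0.50.

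Cdk1, the kinase that drives entry, stood at 2.54, 1.74 and 2.60 with control siRNAs, 2.35, 1.67 and 2.06 with set 1, 1.92, 1.90 and 2.19 with set 2 and 2.38, 2.00 and 2.32 on the arrays labelled overexpression on the 3 slides in order. The control arrays of slides 1 and 3 were its highest values and that of slide 2 was among its lowest, so every group overlapped the controls. Its difference was -0.27 ± 0.21 for the siRNA average (adjusted p = 0.701) and -0.06 ± 0.25 for labelled overexpression. Its other probes gave -0.40 and -0.43 for the siRNA average, in the same direction, although the last of them was also far lower on slide 2 than on the other slides.

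Ccnb1, a cyclin B, stood at 3.98, 3.71 and 4.03 with control siRNAs, 4.02, 3.89 and 3.55 with set 1, 3.41, 3.83 and 3.56 with set 2 and 3.96, 4.02 and 3.84 on the arrays labelled overexpression. Groups overlapped, with a difference of -0.20 ± 0.14 for the siRNA average, and its other probes gave 0.16 and 0.09, so the probes disagree in sign. Ccnb2, the other cyclin B on the list, stood at 3.19, 2.93 and 3.15 with control siRNAs, 3.38, 3.53 and 3.14 with set 1, 3.00, 3.63 and 3.38 with set 2 and 3.04, 3.23 and 2.97 on the arrays labelled overexpression. It went the other way from Ccnb1's brightest probe, at 0.25 ± 0.15 (adjusted p = 0.585), and groups overlapped.

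Both Cdc25 phosphatases, which remove the inhibitory phosphates from Cdk1, had positive siRNA differences. Cdc25b stood at 0.93, 0.94 and 1.29 with control siRNAs, 1.15, 1.59 and 1.16 with set 1, 0.97, 1.59 and 1.60 with set 2 and 1.01, 1.19 and 1.20 on the arrays labelled overexpression, a difference of 0.29 ± 0.17 for the siRNA average. Cdc25c stood at -1.13, -0.97 and -0.74 with control siRNAs, -1.16, -0.19 and -0.89 with set 1, -1.33, -0.10 and -0.40 with set 2 and -1.25, -0.66 and -0.93 on the arrays labelled overexpression, a difference of 0.27 ± 0.29. The 3 highest Cdc25c values were those of set 2 on slides 2 and 3 and of set 1 on slide 2, while both sets lay below the slide 1 control on slide 1, and neither gene separated the groups.

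The mitotic kinases lay mostly below control, 5 of 6 for the siRNA average with a median of -0.15. Plk1, the Polo-like kinase, stood at 4.09, 3.96 and 4.32 with control siRNAs, 4.03, 3.96 and 3.94 with set 1, 3.64, 4.08 and 4.04 with set 2 and 4.11, 4.03 and 4.34 on the arrays labelled overexpression, a difference of -0.18 ± 0.13. Aurka, the Aurora kinase of the spindle poles, stood at 3.64, 3.34 and 3.70 with control siRNAs, 3.55, 3.31 and 3.21 with set 1, 3.10, 3.29 and 3.38 with set 2 and 3.70, 3.64 and 3.73 on the arrays labelled overexpression. All 3 arrays labelled overexpression lay above all 6 siRNA arrays, the only member so placed where 3.82% of all genes were, with a difference of 0.38 ± 0.12 (adjusted p = 0.151, or 0.116 blocked by slide). Against control, Aurka differed by -0.25 ± 0.12 for the siRNA average and by 0.13 ± 0.13 for labelled overexpression.

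Bub1, a checkpoint kinase, stood at 1.49, 1.14 and 1.38 with control siRNAs, 1.37, 0.59 and 1.00 with set 1, 0.95, 1.15 and 0.81 with set 2 and 1.33, 1.42 and 0.95 on the arrays labelled overexpression, with a difference of -0.36 ± 0.18 for the siRNA average that had the same sign on all 3 slides. Ttk, the Mps1 kinase of the checkpoint, stood at -3.79, -3.83 and -3.34 with control siRNAs, -2.87, -3.65 and -3.79 with set 1, -4.29, -3.33 and -3.60 with set 2 and -4.13, -3.94 and -3.52 on the arrays labelled overexpression. The set 1 array of slide 1 was its highest value, and labelled overexpression differed by -0.21 ± 0.30. Nek2, a centrosome kinase, differed by -0.07 for the siRNA average.

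Aurkb, the Aurora kinase of the chromosomal passenger complex, was measured by a probe that followed the slide. It stood at -1.87, -7.24 and -1.73 with control siRNAs, -2.14, -6.94 and -2.29 with set 1, -2.42, -6.38 and -2.27 with set 2 and -1.91, -6.63 and -2.03 on the arrays labelled overexpression. On slides 1 and 3 its 8 values ran from -2.42 to -1.73 and on slide 2 its 4 values from -7.24 to -6.38, in all 4 groups, a gap of 3.96 or 15.5-fold between the nearest values. The slide held 98.6% of its variance, so its differences between groups carried an error of 1.70 for the siRNA average and are not read from that fit. Blocked by slide, that difference was -0.13 ± 0.21. Both sets lay below their slide's control on slides 1 and 3 and above it on slide 2. The raw intensity of Aurkb was 4.56 to 9.31 on slide 2, against 116 to 221 on slides 1 and 3. Its slide 2 control was not well above background, so the blocked value averages in readings near the floor.

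Its 3 partners in the passenger complex, which corrects kinetochore attachment, all lay below control for the siRNA average, at a median of -0.30. Birc5 (survivin) stood at 5.04, 4.74 and 5.10 with control siRNAs, 4.84, 4.64 and 4.58 with set 1, 4.31, 4.75 and 4.61 with set 2 and 4.88, 5.17 and 4.82 on the arrays labelled overexpression. Set 2 differed by -0.40 ± 0.16 and the siRNA average by -0.34 ± 0.14 (adjusted p = 0.35), its other probes gave -0.31 and -0.24, and labelled overexpression lay at 0.00. The scaffold protein gene Incenp differed by -0.30 ± 0.12 and the borealin gene Cdca8 by -0.25 ± 0.14. Within slides 1, 2 and 3 the siRNA differences were -0.46, -0.05 and -0.50 for Birc5, -0.46, -0.02 and -0.41 for Incenp and -0.39, 0.13 and -0.48 for Cdca8, so slides 1 and 3 carried them.

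The 9 genes of the checkpoint and kinetochore split, with 4 above control and 5 below for the siRNA average. Mad2l1, the checkpoint protein Mad2 that restrains Cdc20 until kinetochores are attached, stood at 1.69, 1.37 and 1.70 with control siRNAs, 2.20, 1.92 and 2.00 with set 1, 1.83, 2.11 and 1.91 with set 2 and 1.63, 1.54 and 1.38 on the arrays labelled overexpression. On its brightest probe, all 6 siRNA arrays lay above all 3 control arrays and above all 3 arrays labelled overexpression, which themselves overlapped the controls. It was the only member with all siRNA arrays above the controls, where 3.29% of all genes were so placed, and none lay wholly below (2.04%). The difference was 0.41 ± 0.12 for the siRNA average, 1.33-fold (n = 6 against 3, limma's adjusted p = 0.179), with 0.45 for set 1 and 0.36 for set 2.

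Labelled overexpression against the siRNA average gave -0.48 ± 0.12 for Mad2l1 (adjusted p = 0.0751), and it was the only member below with no overlap there (3.32% of all genes). That p was 0.0487 after quantile normalization and 0.0443 after another background correction, both past the threshold, and 0.0657 in the fit blocked by slide. In that comparison limma's lowest adjusted p of any member was 0.154 with the mean over a gene's probes and 0.117 without the filter. It was 0.102 with only the arrays compared and 0.0622 to 0.305 with 1 array left out. Against control, labelled overexpression differed by -0.07 ± 0.14 for Mad2l1. The other Mad2l1 probes gave smaller siRNA differences of 0.19 and 0.05, and for labelled overexpression against the siRNA average -0.30 and -0.19. On both of these probes siRNA arrays overlapped the controls, and the last of them gave -0.04 for set 1 against control.

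Cenpf, a kinetochore and nuclear matrix protein, stood at -4.42, -4.03 and -4.52 with control siRNAs, -4.26, -4.12 and -4.31 with set 1, -4.21, -3.44 and -3.63 with set 2 and -4.53, -4.09 and -4.37 on the arrays labelled overexpression. Set 2 on slides 2 and 3 gave its highest values, and the remaining set 2 array lay within the controls. The difference of set 2 was 0.56 ± 0.21 (adjusted p = 0.284, or 0.0824 blocked by slide), that of set 1 was 0.09 ± 0.21, and set 2 against set 1 gave 0.47 ± 0.21 (adjusted p = 0.509).

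Bub1b, the checkpoint protein BubR1, stood at 0.49, 0.51 and 1.03 with control siRNAs, 0.48, 1.25 and 0.78 with set 1, 0.12, 1.07 and 0.90 with set 2 and 0.47, 0.90 and 0.65 on the arrays labelled overexpression, with a difference of 0.09 ± 0.24 and all groups overlapping. Among genes of the Ndc80 complex, which grips microtubules, the siRNA average differed by -0.10 for Ndc80, -0.11 for Nuf2 and -0.23 for Spc25. Spc25 lay below all controls on all 3 set 1 arrays, with Prc1, Anln and Hmmr, 4 members where 7.09% of all genes were so placed. Mad2l1 alone lay above them (7.48%). Nuf2 had the lowest difference of set 2 from set 1, -0.54 ± 0.19, with all 3 set 2 arrays below all set 1 arrays (6.27% of all genes), while its other probe gave 0.43 for the siRNA average and 0.14 for set 2 against set 1, so its probes disagree. The centromere genes Cenpa and Cenpe differed by 0.18 and -0.08, and Bub3 by -0.09.

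**Figure D2:**
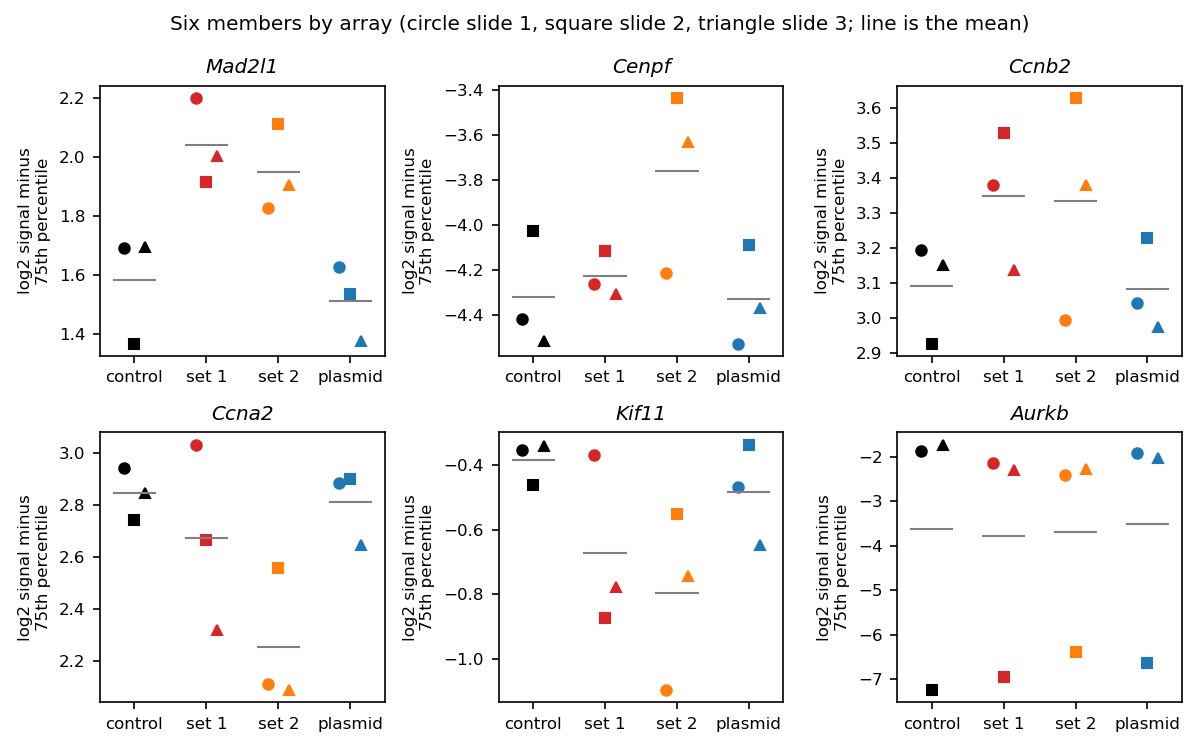
Log2 signal relative to the array's 75th percentile (y axis) of 6 members on each array, by group (x axis); circles are slide 1, squares slide 2, triangles slide 3, and grey lines the group means (n = 3). Mad2l1, by its brightest probe, was higher on all 6 siRNA arrays than on the others, and Aurkb was near -7 on slide 2 in every group.

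Of the 11 genes of the spindle and its motors, 9 lay below control for the siRNA average, with a median of -0.05. Kif11, the motor that pushes spindle poles apart, stood at -0.35, -0.46 and -0.34 with control siRNAs, -0.37, -0.87 and -0.78 with set 1, -1.10, -0.55 and -0.74 with set 2 and -0.47, -0.34 and -0.65 on the arrays labelled overexpression. All 3 set 2 arrays lay below the controls, a difference of -0.41 ± 0.17 (adjusted p = 0.347), and for the siRNA average it was -0.35 ± 0.15. Prc1, which bundles microtubules of the central spindle, stood at 3.45, 3.36 and 3.39 with control siRNAs, 3.20, 3.05 and 2.90 with set 1, 2.92, 3.47 and 3.09 with set 2 and 3.33, 3.57 and 3.18 on the arrays labelled overexpression. Set 1 lay below all controls at -0.35 ± 0.16 (adjusted p = 0.505), and 1 set 2 array lay above them.

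Kif20b, a motor of late cytokinesis, stood at 0.59, 0.45 and 0.83 with control siRNAs, 0.52, 0.00 and 0.61 with set 1, 0.34, 0.79 and 0.49 with set 2 and 0.53, 0.70 and 0.14 on the arrays labelled overexpression. The groups overlapped, and labelled overexpression gave -0.17 ± 0.21. The other spindle genes, among them the motors Kif20a, Kif23, Kif2c and Kif4 and the spindle proteins Tpx2, Nusap1, Hmmr and Aspm, ran from -0.15 (Nusap1) to 0.07 (Kif2c). Among the genes of cell cleavage, the ring scaffold Anln differed by -0.25 ± 0.12 and the cytokinesis gene Ect2 by -0.15 ± 0.19 for the siRNA average.

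All 5 genes of chromosome structure lay below control for the siRNA average, at a median of -0.24, and the condensin subunit genes Smc2 and Smc4 did so on all 3 slides. Smc4, a condensin subunit, stood at 3.63, 3.36 and 3.63 with control siRNAs, 3.44, 2.61 and 3.35 with set 1, 3.16, 3.24 and 3.08 with set 2 and 3.41, 3.42 and 3.02 on the arrays labelled overexpression. All 3 set 2 arrays lay below the controls, and the array of set 1 on slide 2 was the lowest of all. Its siRNA difference was -0.40 ± 0.18 (adjusted p = 0.423), the lowest of all members, and it was also the lowest for labelled overexpression at -0.26 ± 0.21.

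Top2a, which untangles sister chromatids, stood at 1.63, 1.66 and 2.15 with control siRNAs, 1.24, 1.77 and 1.76 with set 1, 0.83, 2.01 and 1.85 with set 2 and 1.49, 1.88 and 1.59 on the arrays labelled overexpression, a difference of -0.24 ± 0.26. Its lowest value was set 2 on slide 1 and its highest the control of slide 3. Mki67, the gene of the Ki-67 proliferation antigen, stood at 4.34, 4.23 and 4.47 with control siRNAs, 4.45, 3.93 and 4.29 with set 1, 4.06, 4.57 and 4.32 with set 2 and 4.25, 4.49 and 3.98 on the arrays labelled overexpression. It differed by -0.08 ± 0.16 for the siRNA average and by -0.11 ± 0.19 for labelled overexpression, both inside their errors. The condensin genes Smc2 and Ncapd2 differed by -0.24 and -0.19 for the siRNA average.

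The 4 genes of anaphase and degradation had a median of 0.02 for the siRNA average, with 3 above control and 1 below. Cdc20, the activator of the anaphase-promoting complex, stood at 4.36, 4.15 and 4.43 with control siRNAs, 4.59, 4.59 and 4.21 with set 1, 4.0, 4.58 and 4.39 with set 2 and 4.30, 4.62 and 4.45 on the arrays labelled overexpression, differing by 0.08 ± 0.15 for the siRNA average and 0.14 ± 0.17 for labelled overexpression. Pttg1, securin, which holds separase inactive until anaphase, stood at 4.35, 4.08 and 4.39 with control siRNAs, 4.52, 4.09 and 4.25 with set 1, 4.24, 4.37 and 4.35 with set 2 and 4.48, 4.70 and 4.42 on the arrays labelled overexpression. All 3 arrays labelled overexpression lay above all 3 controls, the only member so placed (5.92% of all genes) and none lay below (1.71%), with a difference of 0.26 ± 0.14 (adjusted p = 1). Its other probe gave -0.14 there. Espl1, separase itself, followed the slide for 81.5% of its variance and differed by 0.01 ± 0.42, and Ube2c, the ubiquitin-conjugating enzyme of the same step, by -0.09 ± 0.19.

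The direction of the list depended on the slide. On slides 1, 2 and 3 the siRNA average lay below its slide's control for 40, 14 and 40 of the 46 members, at medians of -0.24, 0.14 and -0.29. For set 2 these counts were 43, 6 and 39, for labelled overexpression 39, 5 and 40, and for set 1 26, 24 and 42. In all, 14 members had a siRNA average below control on all 3 slides (22.2% of all genes did), among them Ccna2, Aurka, Bub1, Incenp, Birc5, Kif11 and Smc4, and 3 lay above on all 3, Cdc25b, Mad2l1 and Cenpf (20.0%). Every comparison with control within a slide rests on that slide's single control array.

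Single arrays differed in how they stood for the whole list. Of the 46 members, 19, 29 and 4 lay below their own 12-array mean on the control arrays of slides 1, 2 and 3. On the set 1 arrays 17, 25 and 34 did, on set 2 arrays 44, 8 and 26, and on the arrays labelled overexpression 27, 8 and 29, against 42.2% to 55.3% of all genes on any array. The set 2 array of slide 1 was the lowest for the list, with 44 of 46 members low, and the control of slide 3 and the slide 2 arrays of set 2 and labelled overexpression were the highest. Slide 2 thus held the control array with most members low and, beside it, both of the arrays with the highest medians.

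**Figure D3:**
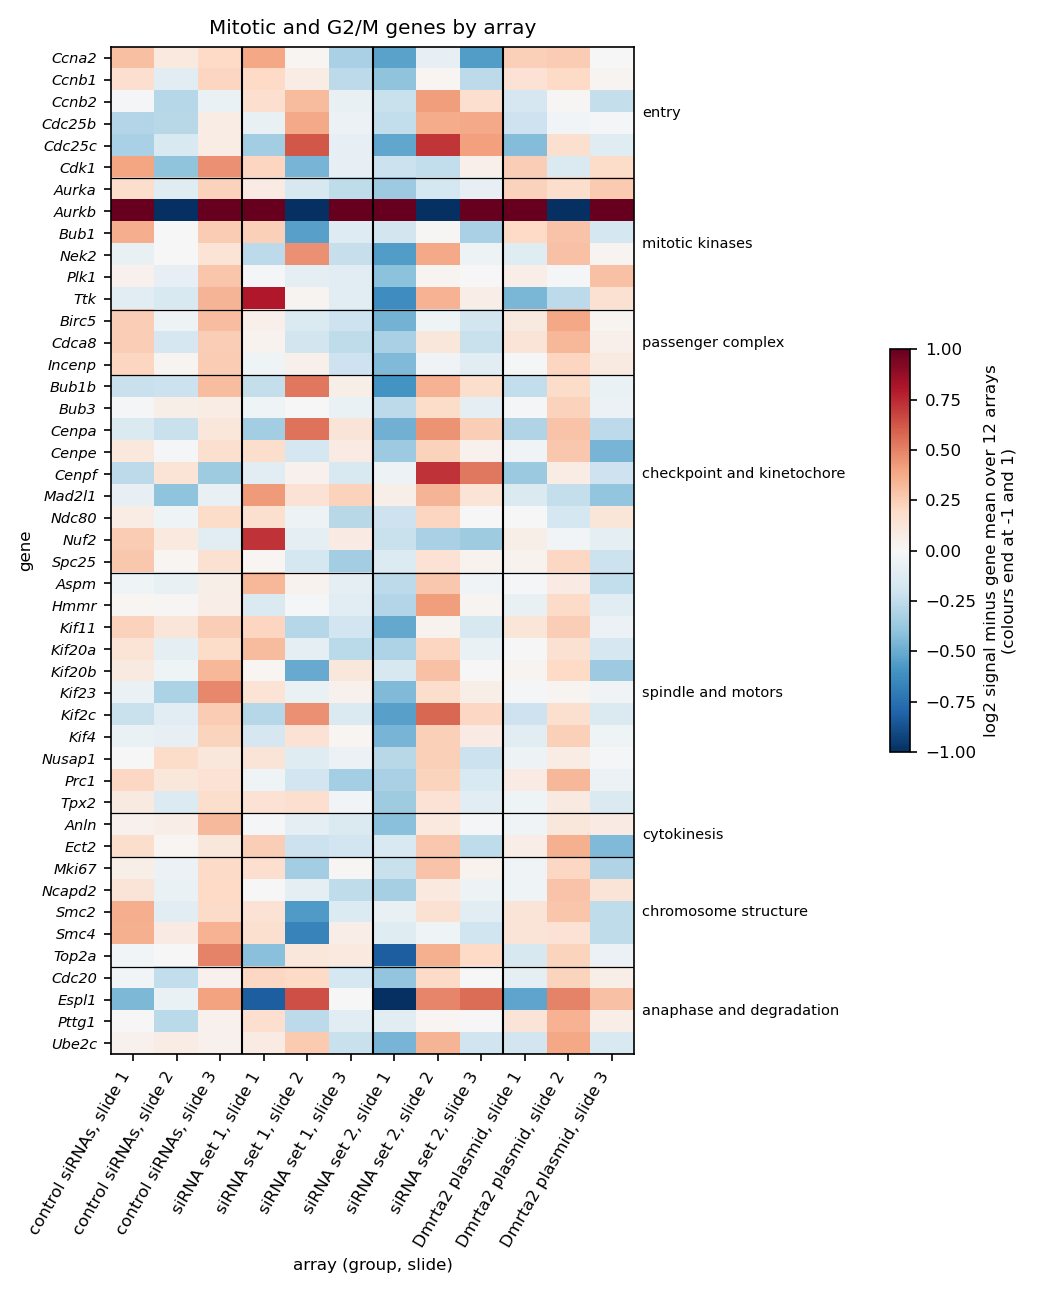
Log2 signal of each member minus its mean over the 12 arrays (colour, from -1 to 1, where colours end), with genes in rows by role and arrays in columns by group and slide. The set 2 array of slide 1 is blue for 44 of 46 members, the control array of slide 3 is red for 42, and Aurkb is dark blue on every slide 2 array.

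Without slide 2, an alternative added after the data were seen, the siRNA average lay below control for 42 of 46 members at a median of -0.24, set 1 for 37 at -0.16, set 2 for 41 at -0.35 and labelled overexpression for 42 at -0.17. Still 0 members passed in those 4 fits by limma, the lowest adjusted p being 0.104, 0.260, 0.0911 and 0.450, and 14, 5, 16 and 1 of the 46 had an unadjusted p under 0.05, where 17.9%, 12.9%, 19.8% and 9.36% of all genes did. For set 1 and labelled overexpression the members' count is thus near or below that of all genes. Single arrays also decided the size. Without the set 2 array of slide 1 its group had a median of 0.01 with 22 members below 0, and without the slide 3 array labelled overexpression that group had 18 below 0 at a median of 0.02.

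Over the 46 members the group held a median of 18.5% of a gene's variance, the slide 16.6% and the rest 44.8%. Over all genes these medians were 28.6%, 26.1% and 31.7%, and the median standard deviation over the 12 arrays was 0.24 for members and 0.27 for all genes. The slide was the largest of the 3 for 13 members (28.3%) and the group for 8. Among 15296 genes the slide was the largest for 5099 (33.3%) and the group for 4950. The shares were not corrected for the number of groups (4) and slides (3), so groups or slides that do not differ also take a share.

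Markers of neurons and intermediate progenitors lay on the other side of their mean from the list on most arrays. Both lay above on the set 1 array of slide 1, and both below on the slide 1 and slide 3 arrays labelled overexpression. All 16 were kept. Their median deviation was lowest on the control array of slide 3 (-0.48), the slide 2 array labelled overexpression (-0.46) and the set 2 array of slide 2 (-0.26), and these 3 arrays had the 3 highest medians of the mitotic genes (0.19, 0.20 and 0.22). Their summed level, in units of the array's 75th percentile, ran from 82.2 to 128 in controls, 109 to 135 in set 1, 73.1 to 131 in set 2 and 77.4 to 116 in labelled overexpression. In set 1 all 16 lay above control (median 0.30), 5 of them with no overlap, where 7.48% of all genes were so placed. Above control were 12 for the siRNA average (median 0.27), 8 for set 2 (0.02) and 6 for labelled overexpression (-0.10). Neurod4, a gene of neuronal differentiation, passed the threshold above control for the siRNA average (1.96 ± 0.32, limma's adjusted p = 0.0308) and set 1 (2.48 ± 0.37, 0.0278), and below the siRNA average in labelled overexpression (-1.64 ± 0.32, 0.0261). None was below background on all arrays of a group. Their part in the mitotic differences was not tested.

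**Figure D4:**
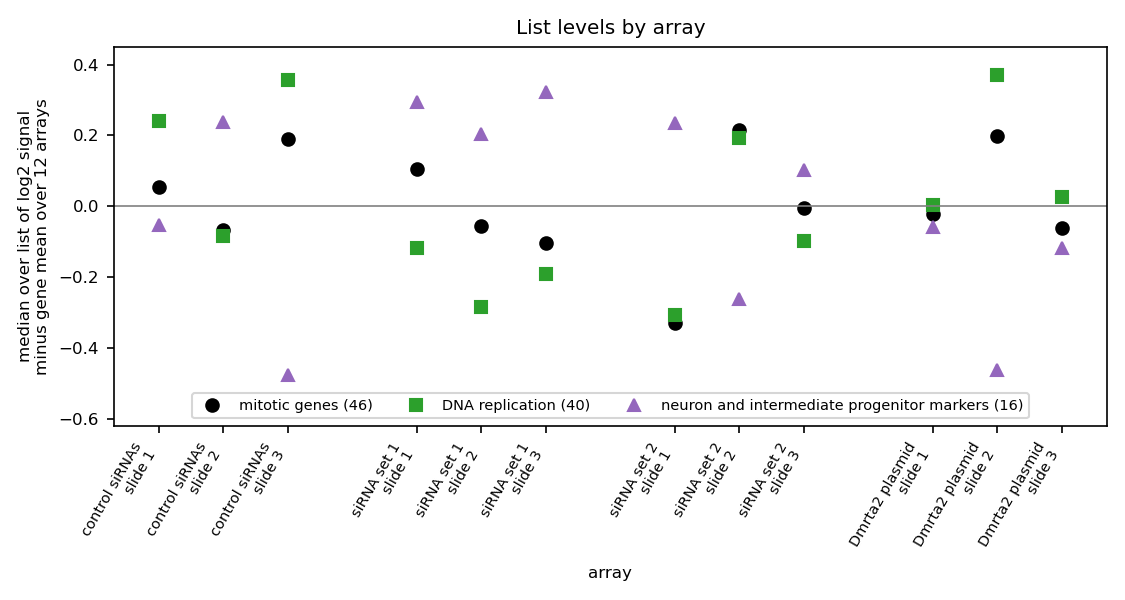
Median over each list of log2 signal minus the gene's 12-array mean (y axis) on each array (x axis, by group and slide), for the 46 mitotic genes, 40 DNA replication genes and 16 neuron and intermediate progenitor markers. The arrays with the highest mitotic medians, such as set 2 on slide 2 (0.22), had the lowest neuron marker medians.

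Genes of the same pathway outside the list gave the following counts, none of which passed in a comparison with control. Of 40 DNA replication genes, which act in the S phase before G2, 37 lay below control for the siRNA average at a median of -0.31, 39 for set 1 at -0.41, 34 for set 2 at -0.23 and 31 for labelled overexpression at -0.05. Below control with an unadjusted p under 0.05 were 12 for the siRNA average (4.61% of all genes), and 13 for set 1, 4 for set 2 and 0 for labelled overexpression, with none above, where 9.96%, 12.8% and 4.48% of all genes had such a p in either direction. On slides 1, 2 and 3 the siRNA medians were -0.45, 0.04 and -0.52. The replication licensing factor gene Cdt1 differed by -0.54 ± 0.19 and the replication clamp gene Pcna by -0.47 ± 0.17 for the siRNA average (adjusted p = 0.274 and 0.306). Of 76 other mitotic genes, 63 lay below control at a median of -0.15, with Lmnb1, which encodes lamin B1, among the 13 above (0.52 ± 0.16, adjusted p = 0.206).

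Among 19 genes of G2/M transcription, 14 lay below control for the siRNA average, at a median of -0.14. E2f2 and E2f1, activators of S phase genes, lay below all 3 controls on all 6 siRNA arrays, where 2.04% of all genes did. They differed by -0.64 ± 0.16 and -0.46 ± 0.13 (limma's adjusted p = 0.117 and 0.153). E2f2 stood at 2.65, 2.38 and 2.88 in controls, 2.03, 1.82 and 1.88 in set 1, 1.92, 2.37 and 1.98 in set 2 and 2.15, 2.73 and 2.39 on the arrays labelled overexpression. Foxm1, the main activator of G2/M genes, differed by -0.12 ± 0.15. Of 16 brakes and inhibitors 11 lay below control at a median of -0.13, with the Cdk1 inhibitory kinase gene Pkmyt1 at -0.45 ± 0.13 and the checkpoint kinase gene Chek1 at -0.41 ± 0.12 (adjusted p = 0.186 and 0.182). Of 14 genes of the anaphase-promoting complex, 10 lay below control at a median of -0.05.

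The 1 cycle gene past the threshold lay outside mitosis. Ccnd1, the cyclin D1 of G1 phase, stood at 1.58, 0.75 and 1.90 with control siRNAs, 0.94, -0.22 and -0.05 with set 1, -0.52, 1.02 and -0.07 with set 2 and 1.66, 2.37 and 1.76 on the arrays labelled overexpression. All 3 of the latter lay above all 6 siRNA arrays, where 3.82% of all genes were so placed. Ccnd1 was higher there than in the siRNA average by 1.75 ± 0.39 (limma's adjusted p = 0.0492). That p lies just under the threshold, and whether Ccnd1 passes under the alternatives was not examined. Against control it differed by -1.22 ± 0.39 for the siRNA average (adjusted p = 0.216) and by 0.52 ± 0.45 for labelled overexpression. The 5 other genes of the G1 list did not pass.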

How the data were processed

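Gene expression was measured on 12 one-colour Agilent mouse arrays. The spot intensity was the processed signal, background-subtracted and detrended by Agilent Feature Extraction 10.5.1.1, per the file headers and the submitters' processing notes. The median and background intensity used for one alternative were also deposited, per the file headers. The authors' deposited table held log2 values that matched the scanner values scaled to the 75th percentile and centred per probe (r of at least 0.999 on every array, column medians from -0.13 to 0.10); its scale is stated by no label, and it was used as an alternative.

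Control spots and 136 to 218 of 43020 spots per array with an outlier mark were left out, log2 intensity minus each array's 75th percentile was taken, and spots of a probe were averaged. No spot was saturated. Of 39429 probes, 32334 carried a RefSeq accession and 26055 were named through a gene table of assembly GRCm38.p6. The array annotation used another build, so probes have no coordinates here, and promoter windows carry those of GRCm38.p6. Probes well above background on at least 3 arrays were kept, with the probe of highest mean per gene. limma 3.58.1 (R 4.3.3, lmFit, eBayes, 8 residual degrees of freedom, two-sided, Benjamini-Hochberg over all genes) compared the groups over all 12 arrays. The code was also run on simulated data without slide effects, with planted differences larger than any of the members. That run says nothing about differences of the members' size. The 95% intervals are limma's. Precision is limited by the number of arrays.

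The 46 members, the gene lists, the role groups and the tests were chosen with earlier results of these data known, so they are no independent evidence. The rule for named genes took Cdk1, Ccna2, Ccnb1, Ccnb2, Plk1, Aurka, Aurkb, Cdc20, Bub1b, Birc5, Top2a and Mki67, any member past the threshold, and the 3 lowest and 3 highest members of each comparison with control, with the value of every array. From other lists it took genes past the threshold and up to 3 others. Alternatives were a slide block, quantile normalization, normexp (offset 50) on the median signals, the deposited table, other filters on dim probes, the mean over a gene's probes, only the arrays compared, each array left out and, added after the data were seen, slide 2 left out. Same-numbered arrays lay on the same slide, per the file headers. The deviations from group means of all 18 same-number pairs correlated above 0 (0.0199 to 0.600), while those of other pairs ran from -0.516 to 0.212. The ranges overlap. Deviations within a group sum to 0, so values above 0 for same-number pairs push those of other pairs down, and the contrast is partly built in.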

Additional observations from a re-analysis of the deposited data

How the results depend on the processing

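The number of members past limma's threshold stayed at 0 in all 6 comparisons under every alternative run, with 1 exception. Mad2l1 passed for labelled overexpression against the siRNA average after quantile normalization (1 member, adjusted p = 0.0487, difference -0.50) and after normexp on the median signals (1 member, adjusted p = 0.0443, difference -0.50). With the replicate number, which is the slide, as a block, 0 members passed, and the lowest adjusted p among members was 0.131 for the siRNA average, 0.193 for set 1, 0.0824 for set 2, 0.933 for labelled overexpression, 0.159 for set 2 against set 1 and 0.0657 for labelled overexpression against the siRNA average. The block left every difference as it was. Leaving out 1 array at a time, the median over members ran from -0.16 to -0.05 for the siRNA average, -0.17 to -0.04 for set 1, -0.24 to 0.01 for set 2, -0.12 to 0.02 for labelled overexpression, -0.17 to 0.08 for set 2 against set 1 and -0.015 to 0.13 for labelled overexpression against the siRNA average, with 0 members called each time. In that last comparison 24 members lay below 0 without the set 2 array of slide 1 and 25 without the slide 2 array labelled overexpression, against 14 with all arrays. Members with an unadjusted p under 0.05 in the siRNA average numbered 1 without the control array of slide 1 or of slide 3 (7.59% and 8.82% of all genes), and 9 without the set 1 array of slide 1 or the set 2 array of slide 2 (14.6% and 13.1%).

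Counts over all genes moved more. For the siRNA average, set 1, set 2, labelled overexpression, set 2 against set 1 and labelled overexpression against the siRNA average, they were 234, 115, 362, 56, 37 and 530 with the slide block, 37, 26, 55, 28, 15 and 248 with normexp, 36, 0, 0, 32, 0 and 254 with only the arrays compared, 37, 26, 26, 34, 0 and 246 without the filter, and 53, 1, 69, 66, 1 and 121 without slide 2. Leaving out 1 array gave 17 to 88, 4 to 84, 10 to 145, 19 to 55, 0 to 12 and 106 to 329. Of 2892 alternative values of the 23 named members, 2831 stayed on their side of the threshold and moved by no more than their standard error. Another 59 moved by more and 2 were the Mad2l1 values above. Many of these values could not move. The slide block, the fit of only the arrays compared and the lack of a filter left the members' differences as they were. So did leaving out an array of a group not compared. The count is thus no measure of stability.

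Limits: with 3 arrays a group, intervals within a 2-fold difference leave smaller differences undecided, and all comparisons with control share 3 arrays. In the members the slide's median share of variance (16.6%) is near the group's (18.5%), neither corrected for the number of slides or groups.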

Other observations

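The slide 2 values of Aurkb were not alone. Of 26741 probes examined, 15 were lower on all 4 arrays of slide 2 than on every array of slides 1 and 3 by at least 3 on the log2 scale, and 0 were higher by as much. On slide 1 and on slide 3, 0 probes stood apart in this way in either direction. Of the 15 probes, 7 carried a gene name, Aurkb, Arhgap19, Bex6, Lyar, Rabggtb, Snrpc and a second probe of Cdk1, which was not the probe used above. The gap was 3.96 for Aurkb, 3.48 for that Cdk1 probe and 4.96 for Bex6. All 4 groups showed it on this slide, and its cause was not tested.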
